A study of Mus musculus with 6 samples.

Results

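The G1 cyclins, cyclin-dependent kinases (CDKs) and CDK inhibitors were examined as the drivers of, and the brakes on, the exit of hematopoietic stem cells (HSCs) from quiescence. The group holds 10 genes, chosen by gene symbol from the 21878 rows of the expression files: the D-type cyclins Ccnd1, Ccnd2 and Ccnd3, the kinases Cdk4 and Cdk6, the inhibitors Cdkn1a, Cdkn1b, Cdkn1c and Cdkn2c, and the retinoblastoma gene Rb1. All 10 were found and all 10 passed the filter on low values. RNA-seq was performed on HSCs sorted from the bone marrow of wild-type (WT) mice, with 3 control and 3 IGF1 libraries. By the study's methods, the IGF1 mice received a subcutaneous dose of recombinant mouse IGF1, and the cells were taken at day 1, with vehicle-treated mice as the controls. Both groups were sorted by the same gate, which takes cells with Sca-1 and c-Kit and without lineage markers, Flt3 (Flk2) or CD34. The age of the mice was not given in the labels. The labels do not say whether the libraries of a group came from separate mice or pools, so p-values measure only the spread between these libraries, which may be technical.

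In quiescent cells, RB1 and its relatives hold E2F transcription factors in check. Growth signals raise the D-type cyclins, which activate CDK4 and CDK6, and these kinases phosphorylate RB1 and release E2F, which then drives the genes of S phase. The INK4 inhibitors (such as p18, from Cdkn2c) bind CDK4 and CDK6 alone, whereas the CIP/KIP inhibitors p21 (Cdkn1a), p27 (Cdkn1b) and p57 (Cdkn1c) bind cyclin-CDK complexes. In HSCs, p57 and p27 are known for holding cells in quiescence, CDK6 is known for setting how fast a cell leaves it, and p27 is a classic target of FOXO factors, which IGF1 signaling through AKT keeps out of the nucleus.

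The controls were not alike. Reads recovered from the deposited values came to 10956036 to 15668571 per library, a scale that is approximate. In control replicates 1, 2 and 3 they came to 15576071, 11166367 and 15668571, against 10956036 to 12464722 in the IGF1 libraries. Genes above 0 numbered 14422, 13645 and 14434 in these controls, against 13861 to 13890. The FPKM values of a library summed to 466619, 635111 and 466135 in them, against 677826 to 680285. Control replicate 2 was nearer to the IGF1 libraries in each of these totals. The mean chi-squared per gene between libraries, which would be 1 if reads were merely counted from the same RNA, was 1.51 to 1.88 between control replicates 1 and 3 and among the IGF1 libraries. It was 228 to 230 between control replicate 2 and the other controls, but 24.3 to 27.6 between control replicate 2 and the IGF1 libraries. Control replicate 2 was therefore nearer to the IGF1 libraries than to its own group, and the results for single genes and lists are given with and without it. The sort was checked against its markers. Cd34 stood at 230 to 640 FPKM and Flt3 at 117 to 188 FPKM, although the gate leaves out cells with either protein. In control replicates 1, 2 and 3 Cd34 was at 640, 265 and 634 FPKM, against 230 to 238 FPKM in the IGF1 libraries. Flt3 went the other way, at 117, 172 and 117 FPKM against 183 to 188 FPKM. Mpo, a gene of granulocyte progenitors, stood at 1613 to 1705 FPKM. Of 10 HSC genes, 9 had at least 1 FPKM in 3 or more libraries. Mecom, Slamf1, Fgd5 and Hoxb5 were the lowest, reaching only 4.10, 2.41, 1.68 and 0.691 FPKM at most. The summed FPKM of marker lists was compared as well, with 3231 to 4333 in controls and 4476 to 4498 in IGF1 libraries for 10 neutrophil and monocyte genes (9 of them detected at that level, with Elane and Prtn3 higher and Ngp, Camp, Ltf, S100a8, S100a9, Lyz2 and Itgam lower in IGF1 libraries than in control replicates 1 and 3), 90.7 to 296 and 295 to 311 for 7 B cell genes (5 detected), and 52.3 to 75.2 and 93.7 to 104 for 6 megakaryocyte and platelet genes (4 detected). The sums were 22.0 to 81.5 and 32.4 to 35.3 for 7 erythroid genes (5 detected), 357 to 778 and 773 to 792 for 5 T and NK cell genes (2 detected, nearly all of it Nkg7), and 486 to 727 and 477 to 492 for the HSC genes. Cd8a was at 0 in the 3 IGF1 libraries. Pf4, of the megakaryocyte and platelet list, stood at 15.6, 48.6 and 15.1 FPKM in control replicates 1, 2 and 3. The IGF1 libraries had 63.05 to 73.7 FPKM of Pf4, and Gp9 and Gp1bb were also higher in them. Itga2b was lower in the IGF1 libraries (17.9 to 19.3 FPKM) than in control replicates 1 and 3 (32.2 and 32.3 FPKM). In control replicate 2 Itga2b was at 16.8 FPKM. What part these differences had in the results was not tested, and in such bulk libraries fewer cells of a type and less RNA per cell cannot be told apart.

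Groups were compared gene by gene with limma after a log2(FPKM + 1) transform, which shrinks the change of low genes. A call required both a change of over 2-fold and an adjusted p under 0.05 (Benjamini-Hochberg, over the 10449 genes tested). In what follows, values listed for a group are in the order of replicates 1, 2 and 3. None of the 10 genes was called (0 of 10), where 1.98% of all genes tested were called higher in IGF1 libraries (207 genes) and 4.63% lower (484 genes). This split depended on scaling, with 349 higher and 188 lower after scaling to the 75th percentile and 279 higher and 278 lower with median-of-ratios scaling. By unadjusted p alone, 3 of the 10 genes passed 0.05, where 53.4% of all genes did. By adjusted p alone, 2 of the 10 genes passed, Cdkn1a and Cdkn1b, both higher, where 20.4% of all genes did. The 3 IGF1 libraries lay above the 3 controls in 2 of the 10 genes, again Cdkn1a and Cdkn1b, where 21.9% of all genes did so, and below them in 2, Cdk4 and Rb1, where 37.4% did. Each of these shares was near or below its background. The median log2 fold change of the 10 genes was 0.14, against -0.18 for all genes tested.

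Without control replicate 2, 1 of the 10 genes was called higher, Cdkn1b, where 12.3% of all genes were, and 0 lower, where 20.6% were. By adjusted p alone 8 of the 10 then passed, all but Ccnd1 and Cdkn2c, where 88.5% of all genes did. Voom on the recovered reads, with all 6 libraries, also called 1 gene higher, Cdkn1b, where it called 3.66% of all genes higher, and 0 lower, where it called 6.51% lower.

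The 2 genes that passed the adjusted p encode CIP/KIP inhibitors. The sequences before their start sites are shown for that reason, with 250 bases upstream of each start in the RefSeq annotation of GRCm38.p6. Cdkn1a lies at chr17:29090979-29100722 and Cdkn1b at chr6:134920401-134925525, both on the plus strand, and the coordinates of the other genes are from the same annotation. The windows are chr17:29090729-29090978 for the first start site of Cdkn1a, chr17:29093519-29093768 for its second, and chr6:134920151-134920400 for Cdkn1b. They are written 5′ to 3′, with each SP1 motif (GGGCGG, searched on both strands) in capitals.
Cdkn1a, start site 1: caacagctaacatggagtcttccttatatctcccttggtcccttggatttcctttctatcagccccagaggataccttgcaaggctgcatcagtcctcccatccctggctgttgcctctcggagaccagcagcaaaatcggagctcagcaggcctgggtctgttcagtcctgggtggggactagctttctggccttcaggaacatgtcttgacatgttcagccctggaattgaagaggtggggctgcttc
Cdkn1a, start site 2: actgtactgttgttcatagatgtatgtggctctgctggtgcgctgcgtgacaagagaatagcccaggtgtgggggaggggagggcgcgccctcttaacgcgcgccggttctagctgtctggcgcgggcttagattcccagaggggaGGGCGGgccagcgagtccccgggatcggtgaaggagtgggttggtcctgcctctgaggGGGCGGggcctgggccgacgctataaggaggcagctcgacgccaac
Cdkn1b: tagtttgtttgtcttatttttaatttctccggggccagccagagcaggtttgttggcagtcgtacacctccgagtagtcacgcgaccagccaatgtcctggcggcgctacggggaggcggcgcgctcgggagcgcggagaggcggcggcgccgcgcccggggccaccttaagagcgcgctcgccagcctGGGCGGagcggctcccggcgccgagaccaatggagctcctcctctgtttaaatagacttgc
The second window of Cdkn1a held 2 SP1 motifs, 104 to 99 and 46 to 41 bases before the start, and that of Cdkn1b held 1, 61 to 56 bases before it. This motif was in 32.7% of all 32851 windows of the same length. An E2F motif (TTTNNCGC, in 4.3% of all windows) and a FOXO motif (TGTTTAC, in 3.2%) were searched on both strands and were in none of the 3 windows shown, which says only that these letters are not there. Windows were found for 6 of the 10 genes, 9 windows in all. The E2F motif was in 1 of them, that of Cdk6, and the FOXO motif in 1, the first window of Ccnd3.

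Cdkn1a encodes p21, the inhibitor induced by p53 and by many stress signals. Cdkn1a stood at 67.1, 69.1 and 67.4 FPKM across the controls, against 111, 120 and 116 FPKM across the IGF1 libraries, from 1624 to 3049 reads per library. The controls were close to each other and all lay below the IGF1 libraries. The means were 67.9 ± 1.11 FPKM in controls and 116 ± 4.46 FPKM in IGF1 libraries (SD, n = 3), a ratio of 1.70. The log2 fold change was 0.76 (standard error 0.09, adjusted p = 0.0286 from limma). With groups that do not overlap, the exact permutation test of the single gene gave p = 0.1 (2-sided), the smallest that 3 libraries against 3 can give. Here control replicate 2 kept with its own group. On a scale where the mean of control replicates 1 and 3 is 0% and the mean of the IGF1 libraries 100%, it stood at 5.12%, and the log2 fold change without it was 0.77. The gene missed the fold threshold in all fits except that scaled to the 75th percentile, where its log2 fold change was 1.11.

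Cdkn1b encodes p27, a brake typical of resting cells whose protein is controlled in large part by degradation. Cdkn1b stood at 6.95, 12.3 and 6.76 FPKM across the controls, against 18.2, 17.7 and 16.4 FPKM across the IGF1 libraries, from 262 to 543 reads per library. All IGF1 libraries lay above all controls, with control replicate 2 in between, 61.9% of the way. The means were 8.68 ± 3.16 FPKM in controls and 17.5 ± 0.909 FPKM in IGF1 libraries (SD, n = 3), a ratio of 2.01. The log2 fold change was 0.98 (standard error 0.23, adjusted p = 0.0434 from limma), just under the threshold of 2-fold on this scale. The size of the difference rested on control replicate 2. Against the other 2 controls the ratio was 2.55 and the log2 fold change 1.23 (adjusted p = 1.9e-08), whereas against control replicate 2 alone the ratio was 1.42. Cdkn1b was called under 8 of the alternatives tried, with log2 fold changes of 1.06 to 1.53. It missed the adjusted p without the filter on low values (0.0507), and with control replicate 1 or 3 or any IGF1 library left out (0.152 to 0.164).

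Cdkn1c (chr7:143458339-143461059) encodes p57, the inhibitor most closely tied to HSC quiescence. Cdkn1c stood at 5.40, 2.77 and 4.06 FPKM across the controls, against 2.94, 4.06 and 3.60 FPKM across the IGF1 libraries. The groups overlapped, with the highest and the lowest library both among the controls. These values rested on 64 to 173 reads per library. The log2 fold change was -0.14 (standard error 0.22, adjusted p = 0.614), and its sign turned under 3 scalings, to 0.14 with the 75th percentile. Without control replicate 2 it was -0.33 (adjusted p = 0.0273).

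Cdkn2c (chr4:109660876-109666756) encodes p18, an INK4 inhibitor that limits the self-renewal of HSCs. Cdkn2c stood at 8.28, 8.69 and 9.09 FPKM across the controls, against 8.88, 8.97 and 8.26 FPKM across the IGF1 libraries. The groups lay on top of each other. Its log2 fold change was 0.00 (standard error 0.11, adjusted p = 0.982), and 0.00 without control replicate 2, but 0.32 (adjusted p = 0.0998) with 75th percentile scaling. Its control reads, 226 to 330 per library, set the counting error of a single value, which spanned 7.37 to 9.28 FPKM in control replicate 1 (95% Poisson interval, counting error only).

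**Figure D1:**
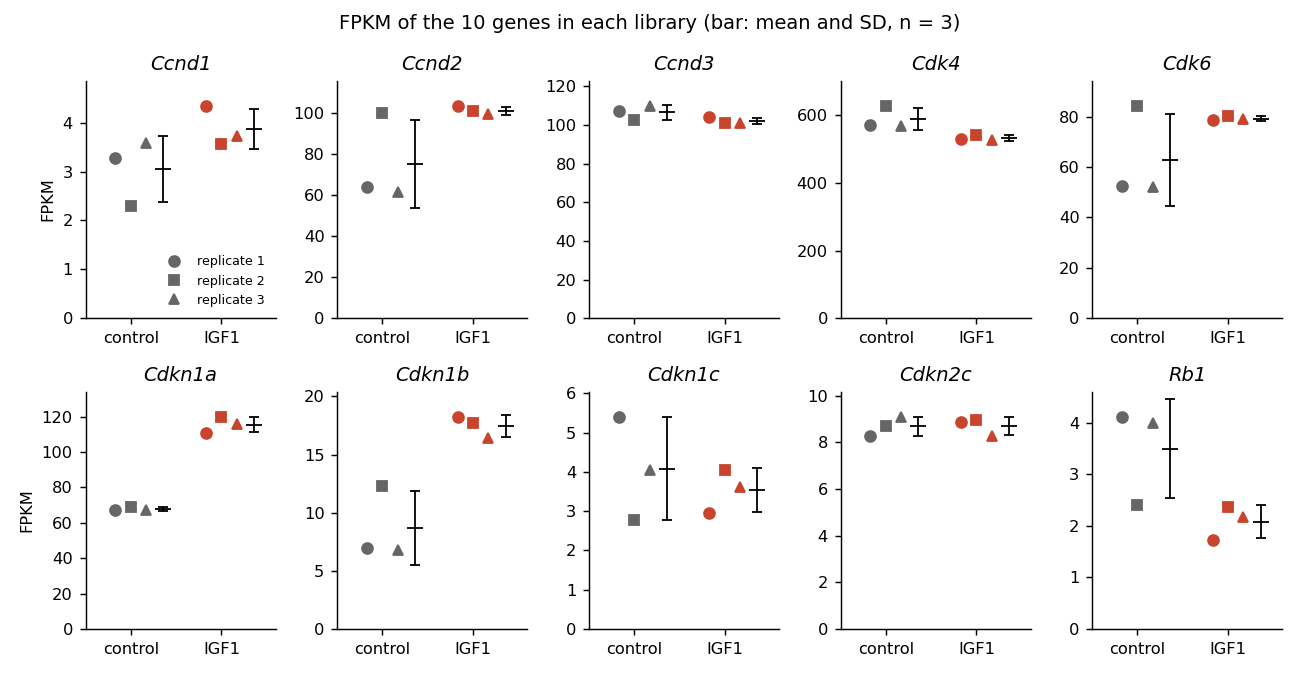
FPKM of each of the 10 genes (vertical axes, linear and from 0) in the 3 control (grey) and 3 IGF1 (red) libraries, with marker shapes for the replicate number and, to the right of each group, the mean and SD (n = 3). Cdkn1a separated the groups with close replicates (67.1 to 69.1 against 111 to 120 FPKM), whereas for Ccnd2 and Cdk6 the square of control replicate 2 sat with the IGF1 libraries.

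None of the D-type cyclins, the first of the drivers, passed the test with all 6 libraries. Ccnd2, the gene of cyclin D2 at chr6:127125162-127152188, stood at 63.9, 100 and 61.3 FPKM across the controls, against 103, 101 and 99.1 FPKM across the IGF1 libraries. Control replicates 1 and 3 were the 2 low libraries, and control replicate 2 lay within the range of the IGF1 libraries. The log2 fold change was 0.46 (standard error 0.20, adjusted p = 0.109), so no difference beyond the spread of the libraries was shown. Without control replicate 2 it was 0.68 (adjusted p = 3.2e-08).

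Ccnd3 (chr17:47505051-47599689), the D cyclin with the highest FPKM in the controls, stood at 107, 102 and 110 FPKM across the controls, against 104, 101 and 101 FPKM across the IGF1 libraries. All libraries lay close together and the groups overlapped. The log2 fold change was -0.06 (standard error 0.09, adjusted p = 0.598), and it turned to 0.29 with libraries scaled to the 75th percentile. Without control replicate 2 it was -0.09 (adjusted p = 0.0238). Ccnd1, the cyclin D1 gene at chr7:144929931-144939831, was low throughout, at 3.27, 2.30 and 3.59 FPKM across the controls, against 4.33, 3.56 and 3.72 FPKM across the IGF1 libraries, from 103 to 224 reads. Control replicate 3 lay just above IGF1 replicate 2, so the groups overlapped. For Ccnd1 the log2 fold change was 0.28 (standard error 0.16, adjusted p = 0.194), and 0.13 without control replicate 2 (adjusted p = 0.162). Removing the trends on transcript length and GC content gave 0.63 (adjusted p = 0.0332), and 75th percentile scaling gave 0.55 (adjusted p = 0.0382).

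Neither of the 2 kinases passed. Cdk4 (chr10:127063535-127067288) stood at 572, 627 and 569 FPKM across the controls, against 530, 543 and 527 FPKM across the IGF1 libraries, by far the highest FPKM of the 10 genes. Each IGF1 library lay below each control, with control replicate 2 the highest of all. For Cdk4 the log2 fold change came to -0.14 (standard error 0.14, adjusted p = 0.396), but to 0.21 with the 75th percentile scaling, 0.04 with median-of-ratios scaling and -0.88 (adjusted p = 0.0613) with quantile normalization. The main value was within the shift of the median gene, -0.18, and without control replicate 2 it was -0.10 (adjusted p = 0.00313). Cdk6 (chr5:3341004-3531008) stood at 52.4, 84.0 and 52.1 FPKM across the controls, against 78.5, 80.2 and 78.9 FPKM across the IGF1 libraries. The IGF1 libraries were within 2 FPKM of each other, and control replicate 2 was higher than all of them. For Cdk6 the log2 fold change came to 0.37 (standard error 0.20, adjusted p = 0.174), and to 0.59 without control replicate 2 (adjusted p = 5.5e-08).

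Rb1 (chr14:73192858-73325951), the brake on which the D cyclins and their kinases act, stood at 4.10, 2.39 and 3.98 FPKM across the controls, against 1.72, 2.35 and 2.17 FPKM across the IGF1 libraries. All IGF1 values lay below all control values, but the gap between the groups was that between 2.39 FPKM (95% Poisson interval 2.02 to 2.82, 144 reads) in control replicate 2 and 2.35 FPKM (1.98 to 2.78, 139 reads) in IGF1 replicate 2, whose intervals overlap. Its log2 fold change was -0.53 (standard error 0.20, adjusted p = 0.0782) and missed both thresholds. Without control replicate 2 it was -0.72 (adjusted p = 5.4e-05). The value was 0.04 (adjusted p = 0.754) once length and GC trends were removed. The longest transcript of Rb1 is 4656 bases long with 41.2% GC, the lowest GC content of the 10 genes.

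**Figure D2:**
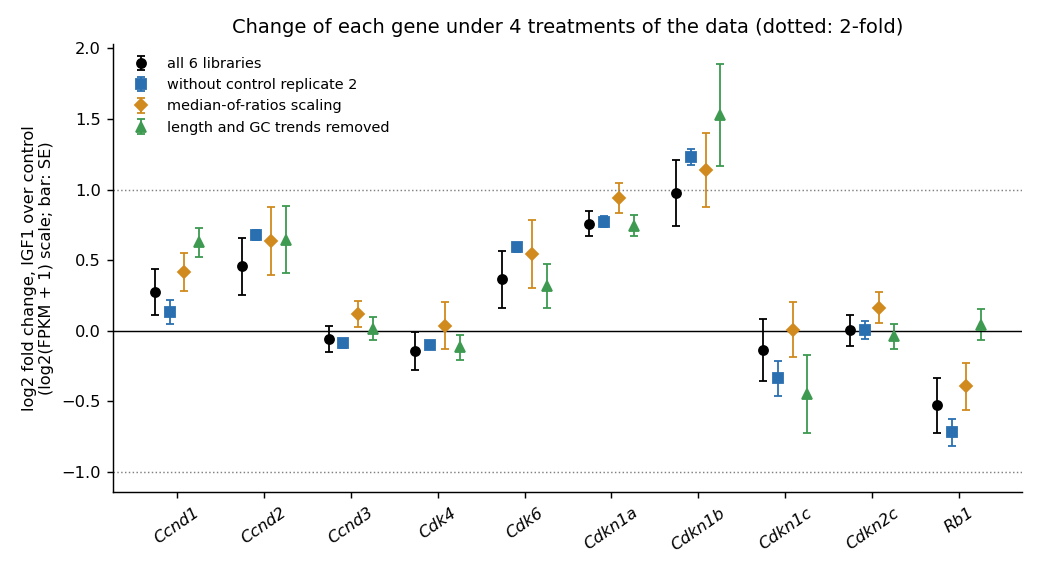
Log2 fold change of IGF1 over control libraries on the log2(FPKM + 1) scale (points, bars show the standard error) for each of the 10 genes, with all 6 libraries (black), without control replicate 2 (blue), with median-of-ratios scaling (orange) and with length and GC trends removed (green); dotted lines mark 2-fold. Cdkn1a stayed between 0.74 and 0.94 and Cdkn1b ranged from 0.98 to 1.53, while Rb1 moved from -0.72 to 0.04.

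The order of the levels, by FPKM, changed at 1 prominent place. In the controls, Cdk4 (mean 589 FPKM) was followed by Ccnd3 (106 FPKM) and then by Ccnd2, Cdkn1a and Cdk6 (75.1, 67.9 and 62.9 FPKM), whose ranges overlapped. Cdkn2c (8.69 FPKM) and Cdkn1b (8.68 FPKM) overlapped each other, as did Cdkn1c, Rb1 and Ccnd1 (4.08, 3.49 and 3.05 FPKM) at the low end. In the IGF1 libraries Cdkn1a (116 FPKM) stood above Ccnd3 (102 FPKM) and Ccnd2 (101 FPKM) in each library. Ccnd3 and Ccnd2 overlapped, and Cdk6 (79.2 FPKM), Cdkn1b (17.5 FPKM) and Cdkn2c (8.71 FPKM) followed without overlap between neighbours. Ccnd1 and Cdkn1c overlapped (3.87 and 3.54 FPKM), and Rb1 was lowest (2.08 FPKM).

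Ratios within a library do not move with the scaling of that library, so the balance of the genes was also compared as 8 shares and ratios, each with a 2-sided exact permutation test over the 6 libraries, for which 0.1 is the smallest p, and with Benjamini-Hochberg adjustment over the 8. None could pass 0.05 in this design. The summed inhibitors (Cdkn1a, Cdkn1b, Cdkn1c and Cdkn2c) came to 87.7, 92.9 and 87.3 FPKM across the controls, against 141, 151 and 144 FPKM across the IGF1 libraries. The summed drivers (the D cyclins with Cdk4 and Cdk6) came to 799, 915 and 796 FPKM, against 819, 829 and 810 FPKM. Inhibitors were higher in every IGF1 library than in every control. The drivers of the IGF1 libraries lay above those of control replicates 1 and 3 and below those of control replicate 2.

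Drivers exceeded inhibitors 9.11, 9.85 and 9.12 times across the controls, against 5.81, 5.51 and 5.61 times across the IGF1 libraries. As log2 of inhibitors over drivers this was -3.23 ± 0.0650 in controls and -2.50 ± 0.0399 in IGF1 libraries (SD, n = 3), a difference of 0.73 with no overlap (exact permutation p = 0.1, adjusted p = 0.2). The difference was 0.69 without control replicate 2, and 0.69 to 0.75 when any library was left out. Among the controls, control replicate 2 was the farthest from the IGF1 group. Cdkn1a made up 74.4% to 80.4% of the inhibitors and Cdk4 64.6% to 71.6% of the drivers, so these 2 genes carried most of each sum.

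Within the D cyclins, Ccnd2 took 36.6%, 48.8% and 35.1% of the summed FPKM across the controls, against 48.8%, 49.1% and 48.6% across the IGF1 libraries. Control replicate 2 lay among the IGF1 libraries (exact permutation p = 0.3, adjusted p = 0.48), and the difference of the means was 8.60 percentage points with it and 12.9 without it. Ccnd3 took 61.5%, 50.03% and 62.8% in the controls and 49.2%, 49.2% and 49.6% in the IGF1 libraries, a narrow separation (exact permutation p = 0.1, adjusted p = 0.2). The difference was -8.78 percentage points, and -12.8 without control replicate 2. The share of Ccnd1 was 1.13% to 2.06% in controls and 1.73% to 2.05% in IGF1 libraries (exact permutation p = 0.9, adjusted p = 0.9). Ccnd2 and Ccnd3 were thus at near equal FPKM in control replicate 2 and the IGF1 libraries, and Ccnd3 was ahead in control replicates 1 and 3.

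Cdk6 made up 8.40%, 11.8% and 8.39% of Cdk4 and Cdk6 together across the controls, against 12.9%, 12.9% and 13.0% across the IGF1 libraries. The groups did not overlap, with means of 9.54% ± 1.98 and 12.9% ± 0.0811 (SD, n = 3, exact permutation p = 0.1, adjusted p = 0.2). The difference was 3.40 percentage points, and 4.54 without control replicate 2. Among the CIP/KIP genes, Cdkn1a took 82.1% to 86.2% in controls and 84.0% to 85.3% in IGF1 libraries (exact permutation p = 0.8, adjusted p = 0.9). Cdkn1b took 8.76%, 14.6% and 8.64% in the controls and 13.8%, 12.5% and 12.1% in the IGF1 libraries, so that control replicate 2 had the highest share of all (exact permutation p = 0.4, adjusted p = 0.533). The difference was 2.11 percentage points, and 4.09 without control replicate 2. Cdkn1c took 6.79%, 3.29% and 5.19% in the controls and 2.23%, 2.87% and 2.65% in the IGF1 libraries, a lower share in each (exact permutation p = 0.1, adjusted p = 0.2), although its own FPKM overlapped. The difference was -2.51 percentage points, and -3.41 without control replicate 2.

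**Figure D3:**
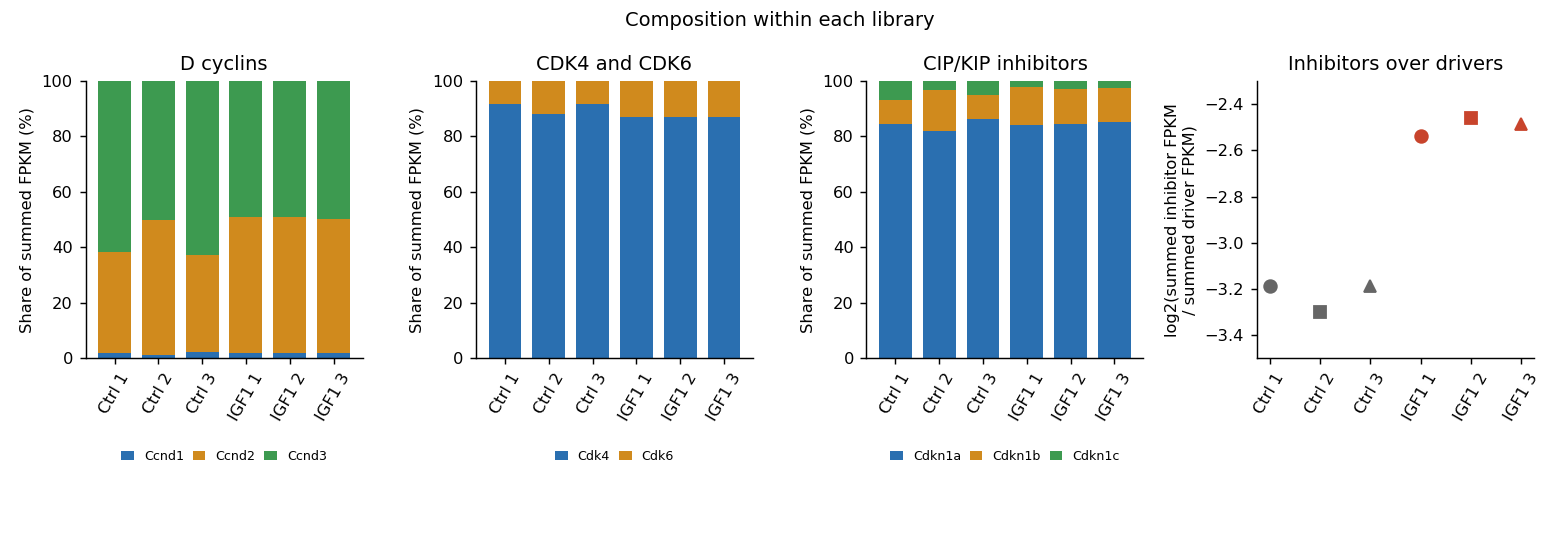
Stacked bars show the percent of summed FPKM that each gene took among the D cyclins, the kinases and the CIP/KIP inhibitors in each library (Ctrl, control), and points show log2 of summed inhibitor over summed driver FPKM. Ccnd2 reached 48.6% to 49.1% in control replicate 2 and the IGF1 libraries, whereas the ratio of inhibitors to drivers kept the 3 controls (-3.30 to -3.19) apart from the IGF1 libraries (-2.54 to -2.46).

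The pathway around these genes was described by 7 lists with 53 other genes, of which 51 could be tested. Among the 51, 0 were called higher and 6 lower, where 1.98% of all genes tested were called higher and 4.63% lower. Of their log2 fold changes, 9 lay above 0 and 42 below. At an unadjusted p under 0.05 with the same fold threshold 0 were higher and 19 lower. Of the 10449 genes tested, 666 and 1077 were. Voom on the recovered reads called 0 of the 51 higher and 5 lower, where it called 3.66% of all genes higher and 6.51% lower. The median log2 fold change was -0.61, against -0.18 for all genes tested, and it was -0.33 to -0.50 under the 3 scalings. With length and GC trends removed it was -0.43, and 1 of the 51 was called lower, where 154 of 10352 genes were. Without control replicate 2, 22 of the 51 were called lower and 0 higher, where 20.6% of all genes were called lower and 12.3% higher.

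Of the other INK4 inhibitors, Cdkn2a and Cdkn2b were listed at 0 in all 6 libraries. Cdkn2d, the p19 gene, stood at 57.9, 77.8 and 57.5 FPKM across the controls, against 83.5, 87.7 and 89.3 FPKM across the IGF1 libraries, with no overlap. Its log2 fold change was 0.44 (adjusted p = 0.0644), 0.58 without control replicate 2 and 0.03 with length and GC trends removed. Cyclin E, CDK2 and CDC25A act after the D cyclins, and all 4 of their genes had values below 0. Their median was -1.005, and -0.49 with length and GC trends removed. Cdc25a, the phosphatase that activates CDK2, had a log2 fold change of -1.06 (adjusted p = 0.0557), and Ccne1, a cyclin E gene, -0.49 (adjusted p = 0.0689), and neither passed. Leaving out control replicate 2 gave -1.43 (adjusted p = 1.4e-09) and -0.65 (adjusted p = 1.4e-05). In that fit 3 of the 4 genes were called lower, where 20.6% of all genes were. With length and GC trends removed, Cdc25a was at -0.51 (adjusted p = 0.0692) and Ccne1 at -0.46 (adjusted p = 0.0819). Of the 3 genes of the CDK-activating kinase, Ccnh had a log2 fold change of -0.60 (adjusted p = 0.0455), short of the fold threshold, and Cdk7 -0.61 (adjusted p = 0.0554). Ccnh was at -0.74 without control replicate 2, at -0.42 (adjusted p = 0.0532) with median-of-ratios scaling and at -0.12 (adjusted p = 0.283) with length and GC trends removed, and Cdk7 at -0.79, -0.45 and -0.23.

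The other pocket proteins with the E2F and DP factors counted 12 genes, 10 of them below 0, with a median of -0.46 (-0.18 with 75th percentile scaling) and no call. Rbl1, the p107 relative of Rb1, stood at 32.1, 25.8 and 32.1 FPKM across the controls, against 17.1, 18.1 and 17.6 FPKM across the IGF1 libraries. It passed the adjusted p with a log2 fold change of -0.73 (adjusted p = 0.0307), as did E2f7, a repressor E2F, with -0.58 (adjusted p = 0.0429). With length and GC trends removed, Rbl1 was at -0.20 (adjusted p = 0.120) and E2f7 at -0.41 (adjusted p = 0.0447). They were at -0.83 and -0.70 with control replicate 2 left out. The MuvB core, which with pocket proteins silences or with B-MYB activates cell cycle genes, counted 6 genes together with B-MYB. Their median was -1.14 (-0.51 with length and GC trends removed). Rbbp4 (-1.22, adjusted p = 0.0412) and Lin52 (-1.52, adjusted p = 0.0487) were called lower. With length and GC trends removed, Rbbp4 was at -0.76 (adjusted p = 0.0377) and Lin52 at -1.04 (adjusted p = 0.0599), and neither was called. Both were called with control replicate 2 left out (-1.54 and -2.002).

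Skp2, the F-box protein that marks p27 for degradation, was 1 of the called genes. It stood at 10.3, 4.36 and 10.6 FPKM across the controls, against 2.41, 2.47 and 2.19 FPKM across the IGF1 libraries. All IGF1 libraries lay below all controls, and control replicate 2 lay nearer to the IGF1 libraries. Skp2 fell by 1.41 on the log2 scale (standard error 0.32, adjusted p = 0.0415), and its log2 fold change was -1.77 without control replicate 2. It was also the 1 listed gene still called with length and GC trends removed (-1.11, adjusted p = 0.0437). Skp1a, its partner in the ligase, passed the adjusted p alone (-0.77, adjusted p = 0.0478), with -0.98 without control replicate 2 and -0.53 (adjusted p = 0.0728) with length and GC trends removed. The 10 genes of turnover and folding as a whole had a median of -0.19, which turned to 0.13 with 75th percentile scaling.

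The S phase and mitotic cyclin genes that E2F drives were mostly lower, with 14 of 15 log2 fold changes below 0, a median of -1.04 and 13 genes whose IGF1 libraries all lay below all controls, where 37.4% of all genes tested did so. The median was -0.69 with 75th percentile scaling and -0.73 with length and GC trends removed. Cdc6, which loads the replicative helicase, stood at 22.4, 11.7 and 21.3 FPKM across the controls, against 7.02, 6.96 and 7.22 FPKM across the IGF1 libraries, and was called (-1.22, adjusted p = 0.0380). Also called were Rrm2, the inducible subunit of ribonucleotide reductase (-1.34, adjusted p = 0.0435), and Ccnb1, cyclin B1 (-1.46, adjusted p = 0.0467). Once length and GC trends were removed, Cdc6 was at -0.94 (adjusted p = 0.0341), Rrm2 at -0.96 (adjusted p = 0.0492) and Ccnb1 at -0.90 (adjusted p = 0.0536), so that none reached the fold threshold. All 3 were called with control replicate 2 left out (-1.50, -1.72 and -1.90). In each of them control replicate 2 took an intermediate value.

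**Figure D4:**
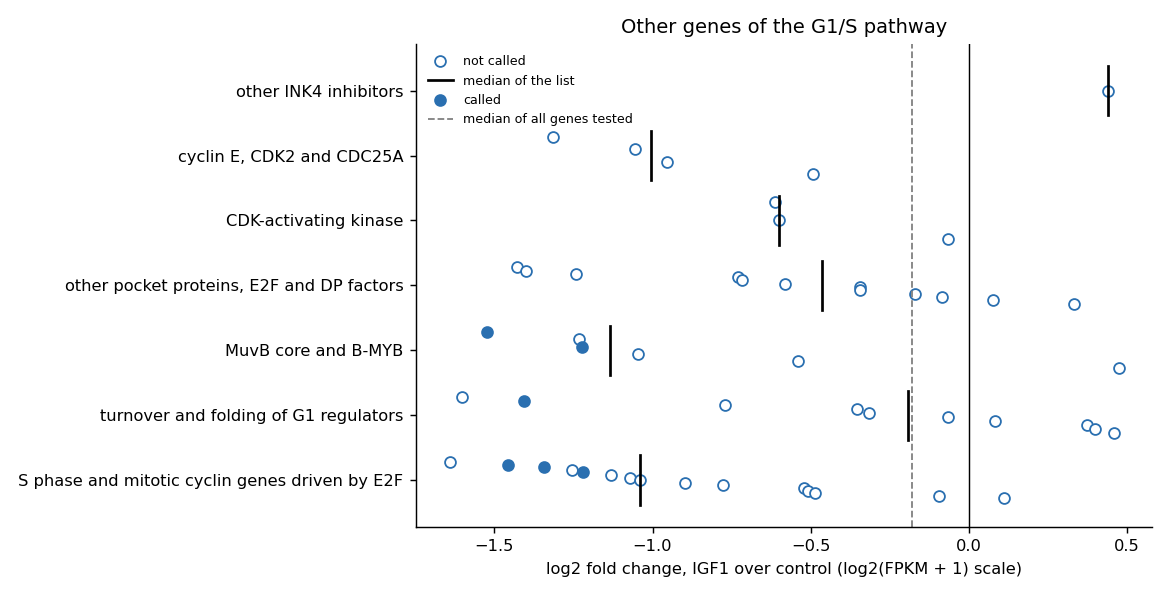
Log2 fold change of IGF1 over control libraries on the log2(FPKM + 1) scale for the 51 tested genes of 7 pathway lists (1 point per gene, filled where called; the vertical offset only separates points), with the median of each list as a black bar and that of all genes tested as a dashed line at -0.18. The 6 called genes are all lower, and the medians run from -1.14 for the MuvB core to 0.44 for Cdkn2d, which is alone in its list.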

How the data were processed

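RNA-seq values of sorted bone marrow HSCs from 3 control and 3 IGF1 libraries were used, grouped by the treatment label. The labels conflict, since the extraction text names control or IR mice while the treatment label, titles and series design name IGF1; IGF1 was taken. The authors deposited FPKM values, as 21878 rows of gene symbols for each library. The submitters' processing notes name fastp, HISAT2, StringTie, GRCm38 and mm10, whereas the study's methods name RSEM and DESeq2. Whether strand was used in counting was not given in the sources used here.

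The 10 members and the pathway and marker lists were chosen with earlier results of these data known. All members, the called genes of each other list and up to 2 of its genes with the smallest adjusted p were named. A gene that this rule names in the S phase list is not reported here. The 10449 genes that reached 1 FPKM in 3 or more libraries entered limma 3.58.1 (lmFit, eBayes with a trend, R 4.3.3) as log2(FPKM + 1), 2-sided, with Benjamini-Hochberg adjustment over all of them. The fit was tested on simulated data. Reads were recovered as whole multiples of the step that 1 read makes in the FPKM of a gene, for 15635 of 15640 rows above 0 (within 0.02 of a read, against 0.4% of 1000 jittered rows). Ratios between depths rest on the steps, and the totals are sums of the recovered reads and are approximate. Intervals cover counting error only. Transcript length and GC content were those of the longest GENCODE M21 transcript, known for 99.1% of genes tested, and their trends were removed per library as splines with 5 degrees of freedom.

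Alternatives were 3 scalings (75th percentile, median of ratios, quantile), pseudocounts of 0.1 and 5, no filter or a minimum of 5 FPKM, no variance trend, a replicate block, library weights, length and GC removal, adjusted p alone, each library left out and, chosen after seeing the data, voom on recovered reads.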

Additional observations from a re-analysis of the deposited data

How the results depend on the processing

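The counts moved with the libraries kept and with the processing. Over all genes, leaving out 1 library gave 0 to 1281 genes higher and 0 to 2157 lower, with 0 in each direction for each library other than control replicate 2. With the fold threshold and an unadjusted p under 0.05, those fits still gave 233 to 386 higher and 450 to 795 lower. Counts higher and lower were 1276 and 2159 with library weights (weight 0.0137 for control replicate 2), 349 and 188 with 75th percentile scaling, 66 and 157 with a pseudocount of 5, 109 and 265 without a filter, and 654 and 1476 by adjusted p alone. Voom on recovered reads called 382 higher. Genes lower were 278 with median-of-ratios scaling, 319 with quantile normalization and 154 with length and GC trends removed. Members called were 2 with 75th percentile scaling and by adjusted p alone, 0 to 1 when a library was left out, and 1 with median-of-ratios scaling, quantile normalization, a pseudocount of 0.1, library weights, length and GC removal or voom. Pathway genes called lower were 3 with a pseudocount of 5 or no filter, 22 with library weights, 1 with length and GC removal, and 0 to 22 when a library was left out.

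Signs turned for Ccnd3 (0.29 with the 75th percentile, 0.12 with median of ratios, 0.0156 with length and GC removal), Cdk4 (0.21 and 0.0375 with the same scalings), Cdkn1c (0.14, 0.00789 and, with quantiles, 0.0404; -0.33 to 0.0465 when a library was left out), Cdkn2c (-0.0397 with length and GC removal; -0.0275 to 0.0362 when a library was left out) and Rb1 (0.0439 with length and GC removal). The share of Cdkn1a among CIP/KIP genes, IGF1 minus control, was -2.34 percentage points with length and GC removal and -0.677 to 1.37 when a library was left out, and that of Ccnd1 among D cyclins -0.0963 to 0.369. The causes were not tested. Cdkn1a and Cdkn1b were higher under all alternatives run, but with control replicate 1 or 3 or any IGF1 library left out neither passed the adjusted p (0.141 to 0.164).

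Replicate numbers did not pair the libraries (correlations of -0.0572, -0.0503 and 0.00567 for numbers 1, 2 and 3). With the replicate block, 0 genes were called in each direction, 0 pathway genes were called lower, and with the fold threshold and an unadjusted p under 0.05 there were 680 higher and 1100 lower. The adjusted p of Cdkn1a and Cdkn1b was then 0.0851. Low read numbers (64 to 343 per library) limit Ccnd1, Cdkn1c, Cdkn2c and Rb1, and the control values of Cdkn1b rest on 262 to 342 reads.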
